A study of Mus musculus with 2 samples.

Results

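Neutrophil-lineage cells were examined in single-cell libraries of mouse ovarian tumors grown with or without an antibody that neutralizes Activin A, a growth factor of the TGF beta family. Members were chosen by measured UMIs: a cell was taken when it held at least 20 UMIs of S100a8 plus S100a9 or at least 5 UMIs of Elane, Mpo, Camp and Ngp together, with at most 4 UMIs of C1qa, C1qb and C1qc and 0 UMIs of Cd3d, Cd3e and Cd3g. A UMI (unique molecular identifier) marks 1 captured RNA molecule. This gave 194 of 16239 kept cells. A barcode counted as a kept cell between 500 and 8500 detected genes and between 500 and 100000 UMIs, with a mitochondrial share of 10% or less; the lower limits are below those of the study because these cells hold little RNA. All animals were female C57BL/6 mice of 6 to 8 weeks with an abraded peritoneum, and all carried syngeneic p53-/-, myc, Hras ovarian cancer cells injected into the peritoneal cavity. Per the labels, one group received control IgG (7 mice) and the other the Activin A neutralizing antibody (8 mice), each for 10 days, and the study's own account of its single-cell experiment differs in both. Tumors from the abrasion site were pooled over the mice of a group, dissociated with enzymes, and depleted of erythrocytes and dead cells, so each group is 1 library. In all, 98174850 UMIs were counted with control IgG and 74117462 with the antibody. The antibody cannot be told apart from any other difference between the libraries, and no test between groups was possible. Intervals given here are 95% intervals for counting error only.

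Neutrophils arise in the bone marrow and change their transcripts in a known order as they mature. Promyelocytes make the proteases and myeloperoxidase of the azurophil granules, myelocytes make the proteins of the specific granules, and later forms make gelatinase and chemokine receptors. The alarmin pair S100a8 and S100a9 is abundant from the myelocyte stage on. Mature neutrophils do not divide, hold little RNA, and can enter tumors, where they release cytokines and chemokines.

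The share of neutrophil-lineage cells in the 2 libraries depended on the limits set, while the mix of classes differed. Members were 114 of 9342 kept cells with control IgG (1.22%, Clopper-Pearson interval 1.01 to 1.46%) and 80 of 6897 with the antibody (1.16%, 0.921 to 1.44%), a log2 ratio of antibody over control IgG of -0.07 (-0.50 to 0.35). Cells with at least 2 UMIs of Elane plus Mpo numbered 13 of 80 members with the antibody (16.2%, 8.95 to 26.2%) and 0 of 114 with control IgG. By the rule of 3 cells of the total a count of 0 allows a share of up to 2.63%, and the Clopper-Pearson upper bound is 3.18%. Of all kept cells they were 0.188% (upper bound 0.322%) with the antibody and 0 with control IgG (up to 0.0321% by the rule of 3 cells, 0.0395% by Clopper-Pearson). Outside the members, 5 kept cells with control IgG held 2 or 3 Mpo UMIs and 0 Elane UMIs, and 9 with the antibody held 2 or more UMIs of Elane plus Mpo. Cells with at least 5 UMIs of Camp plus Ngp numbered 7 of 80 (8.75%, 3.59 to 17.2%) and 1 of 114 (0.877%, 0.0222 to 4.79%), a log2 ratio of 3.32 (0.36 to 8.81). Elane, Mpo, Camp, Ngp, S100a8 and S100a9 chose the members or the stages, so their levels are a description. At an S100 threshold of 50 the share of members was 0.739% with control IgG and 0.957% with the antibody, a log2 ratio of 0.37 (-0.14 to 0.88), so the direction of the share turned with the threshold. With the study's limits of 1000 genes and 1000 UMIs per cell it was 0.148 and 0.470%, a log2 ratio of 1.66 (0.68 to 2.73). Without 11 deep cells and 4 Elane cells that carried markers of other cell types, described further on, it was 1.19 and 0.986%, a log2 ratio of -0.27 (-0.73 to 0.18). Among cells without other reason to be left out, 29 of the control IgG library and 4 of the antibody library lay just below the S100 threshold, at 10 to 19 UMIs, and 18 and 8 members lay just above it, at 20 to 29 UMIs. The threshold on Cd3 UMIs removed 22 and 12 further cells that had passed an S100 or granule threshold, and that on C1q UMIs removed 7 and 0, with 3 and 0 counted under both. No member shared its barcode with a kept cell of the other library.

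The members fell into 4 classes by raw UMIs. Beside the 13 Elane+Mpo cells, a further 3 antibody cells and 1 control IgG cell held Camp plus Ngp without Elane or Mpo. The others passed by S100a8 and S100a9 alone and were split at 4000 UMIs, a limit set after the data had been seen. S100-only cells under 4000 UMIs numbered 110 with control IgG and 56 with the antibody, which is 1.18% (0.969 to 1.42%) and 0.812% (0.614 to 1.05%) of kept cells, a log2 ratio of -0.54 (-1.03 to -0.06). At an S100 threshold of 50 that ratio was -0.09 (-0.67 to 0.48). S100-only cells with 4000 UMIs or more numbered 3 and 8. The Elane+Mpo cells had a median of 24529 UMIs and 4750 genes. The S100-only cells under 4000 UMIs had a median of 1398 UMIs and 760 genes with control IgG and 1457 UMIs and about as many genes (754.5) with the antibody. Thus the 13 Elane+Mpo cells held 54.2% of the members' UMIs in the antibody library. With the study's own limits of 1000 genes and 1000 UMIs, 13 control IgG and 30 antibody members would be left. All 151 members that those limits remove were S100-only cells under 4000 UMIs.

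**Figure D1:**
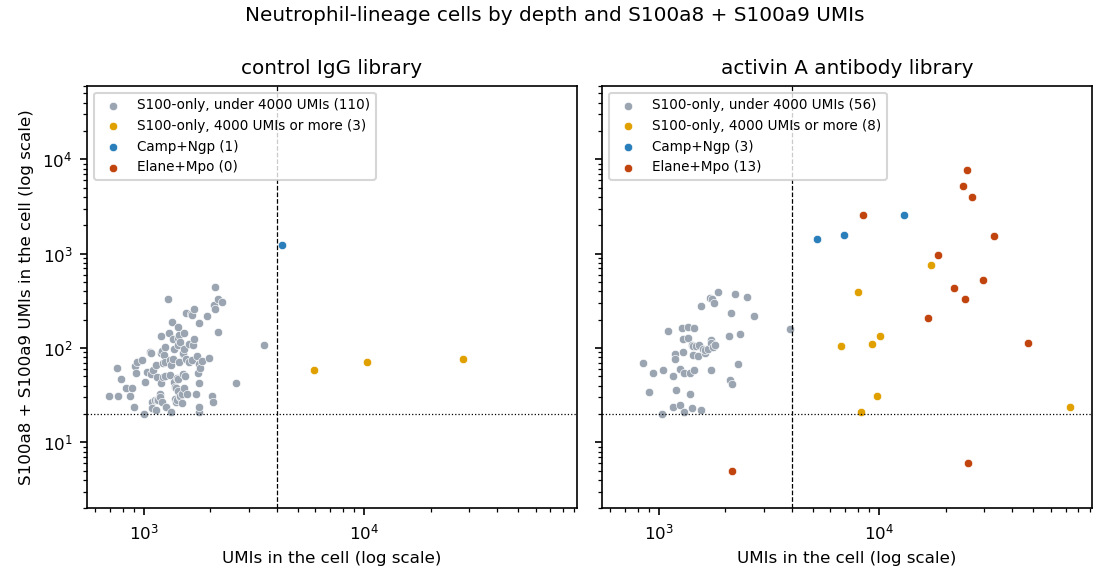
Each point is 1 neutrophil-lineage cell, with its UMIs on the x axis and its S100a8 plus S100a9 UMIs on the y axis, both on log scales, for the control IgG library (left) and the antibody library (right). The dotted line marks 20 S100 UMIs and the dashed line 4000 UMIs. All 13 Elane+Mpo cells are in the antibody library, 12 of them to the right of the dashed line.

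Positions of the genes that chose the members, with 2 related granule genes, are given from GENCODE M21 (GRCm38). Elane (ENSMUSG00000020125, neutrophil elastase) lies on chromosome 10 at 79886247 to 79888215, next to Prtn3 (proteinase 3) at 79874476 to 79883174. Mpo (ENSMUSG00000009350, myeloperoxidase) lies on chromosome 11 at 87793581 to 87804413. The specific granule genes Camp (ENSMUSG00000038357, the cathelicidin peptide; 109847379 to 109849617), Ngp (ENSMUSG00000032484, neutrophilic granule protein; 110419747 to 110423012) and Ltf (lactoferrin; 111019271 to 111042767) share chromosome 9. The genes S100a8 (ENSMUSG00000056054; 90668978 to 90670035) and S100a9 (ENSMUSG00000056071; 90692632 to 90695721) are neighbours on chromosome 3. All are annotated as protein-coding, and the counts do not say which exons were read.

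As a pool the Elane+Mpo cells held further genes of early granulocytes, which the rule did not use, but unevenly. Over their 303148 UMIs, Prtn3 reached 4819 CPM (counts per 1e6 UMIs; exact Poisson interval 4575 to 5073) and had a UMI in all 13 cells. Ctsg, which encodes cathepsin G, reached 1897 CPM in 10 cells, and Ms4a3, a gene of granulocyte and monocyte progenitors, 749 CPM in 11 cells. Serpinb1a, an inhibitor of neutrophil proteases, was at 739 CPM in 13 cells. The other members of both libraries held 125, 0, 10.8 and 51.9 CPM of these 4 genes. Gfi1, a transcription factor of granulocyte development, was at 69.3 CPM in 7 cells, Myb, a factor of dividing progenitors, at 79.2 CPM in 7 cells, and Prss57, a protease of azurophil granules, at 139 CPM in 6 cells. Gfi1 and Myb had 0 UMIs in the other members. Other genes of the progenitor list did not share this: Cd34, Meis1, Flt3 and Gata2 had 0 UMIs in the 13 cells, Sox4 was at 9.90 CPM against 21.6 CPM in the other members, and Kit was at 23.1 CPM, with UMIs in 5 of the 13 cells. Of the 575 Ctsg UMIs 547 lay in the 5 cells that hold Mpo with little Camp or Ngp, described next, as did 1280 of the 1461 Prtn3 UMIs. These genes were named by their fold over the other members, and that fold was not tested.

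Read one by one, the 13 cells were of 3 kinds, separated after the values had been seen. In 5 cells Elane came with Mpo and with at most 2 UMIs of Camp plus Ngp. Their Elane UMIs were 10, 101, 237, 403 and 424, and their Mpo UMIs, in the same order of cells, were 14, 87, 266, 215 and 268. Prtn3 ranged from 9 to 401 UMIs and Ctsg from 2 to 161, while Ltf, Retnlg, Mmp8 and Mmp9 were at 0 in every one. S100a8 plus S100a9 made up only 0.0238 to 4.67% of their UMIs. All 5 held Gfi1 UMIs (1 to 8) and Mki67 UMIs (1 to 7), the latter a gene of dividing cells. One of the 5 had 2139 UMIs and the other 4 had 21922 to 47456.

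In another 4 cells Elane came with Camp and Ngp. Camp plus Ngp reached 688, 844, 1498 and 2816 UMIs, beside 2, 39, 41 and 9 UMIs of Elane plus Mpo. The specific granule genes Ltf (19 to 112 UMIs) and Lcn2 (143 to 456 UMIs; lipocalin 2, which binds iron carriers of bacteria) and Chil3 (78 to 255 UMIs), a chitinase-like gene, were present in all 4. Cebpe, the transcription factor of specific granule genes, was present at 1 to 21 UMIs. S100a8 plus S100a9 made up 15.2 to 30.4% of UMIs, so these cells were far richer in the alarmins than the Mpo cells. Over the 4 cells the 25 listed genes of cell division summed to 14972 CPM, against 10461 CPM in the 5 Mpo cells. Mki67 had a UMI in all 4 cells.

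In the remaining 4 cells Elane (4 to 28 UMIs) and Prtn3 (14 to 43 UMIs) came without Mpo, Camp, Ngp or Ltf UMIs. All 4 carried the monocyte genes Ly6c2 (37 to 75 UMIs), Ccr2 (4 to 17 UMIs), F13a1 (4 to 18 UMIs) and Csf1r (1 to 5 UMIs), and Gfi1 was at 0. Ccr2 had 0 to 1 UMIs in each of the 5 Mpo cells and 0 in each of the 4 cells with Camp and Ngp. Lcn2 (20 to 186 UMIs) was present in all 4 cells without Mpo, Camp or Ngp. Ly6c2 was not confined to these cells, at 5 to 126 UMIs in the Mpo cells. Nor was F13a1, with 3 and 8 UMIs in 2 Mpo cells and 2 UMIs in 1 cell with Camp and Ngp. Csf1r had 1 UMI in 1 Mpo cell. Thus 9 of the 13 cells carried Mpo, Camp or Ngp, and 4 carried Elane beside monocyte transcripts. Prtn3 was found more widely. In the control IgG library it had 0 UMIs in the members but 1881 UMIs in other kept cells, among them 32.8% of cells with more than 4 C1q UMIs (macrophage genes) and 16.6% of other non-member cells with at least 3 UMIs of Ccr2 plus F13a1. In the antibody library those shares were 25.1 and 7.80%.

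The 4 Camp+Ngp cells without Elane differed among themselves as well. One antibody cell with 13004 UMIs held 590 Camp, 382 Ngp, 110 Ltf and 135 Chil3 UMIs, 11 Top2a UMIs (a gene of dividing cells), and 0 Retnlg and Mmp9 UMIs. The remaining antibody cells held 5 and 2 Camp and 47 and 39 Ngp UMIs, with 172 and 465 UMIs of Retnlg, a secreted protein of late neutrophils, and 19 and 33 UMIs of Mmp9, the gelatinase. The control IgG cell resembled these in Retnlg (99 UMIs) and Mmp9 (23 UMIs), and held more Ngp (143 UMIs) and Camp (46 UMIs). In the control IgG library this 1 cell held 99.3% of all Ngp UMIs of kept cells.

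The deep S100-only cells carried markers of other cell types, some beside neutrophil transcripts. In the antibody library 7 of the 8 carried the monocyte genes F13a1 (4 to 33 UMIs) and Ccr2 (2 to 18 UMIs), with 5 to 10 Prtn3 UMIs and 0 Camp, Ngp and Retnlg UMIs. All 7 also held Lcn2 (3 to 25 UMIs), and 5 of them held Mmp8, a collagenase of neutrophil granules (1 to 12 UMIs). The eighth, with 73151 UMIs, held 112 UMIs of Dlk1 and 29 of Hmga2, genes of the cancer cells in these tumors, beside 24 S100 UMIs. Of the 3 in the control IgG library, 1 with 28122 UMIs held 173 Col1a1 and 405 Col3a1 UMIs, which are fibroblast collagens, and 1 with 10248 UMIs held 177 UMIs of Cd74, a gene of antigen-presenting cells. The third, with 5905 UMIs, held 5 Csf1r and 14 Cd74 UMIs beside 1 Csf3r, 1 Cxcr2 and 2 Mmp9 UMIs. S100a8 plus S100a9 made up a median of 0.703% of UMIs in the control IgG cells of this class and 1.26% in the antibody cells.

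**Figure D2:**
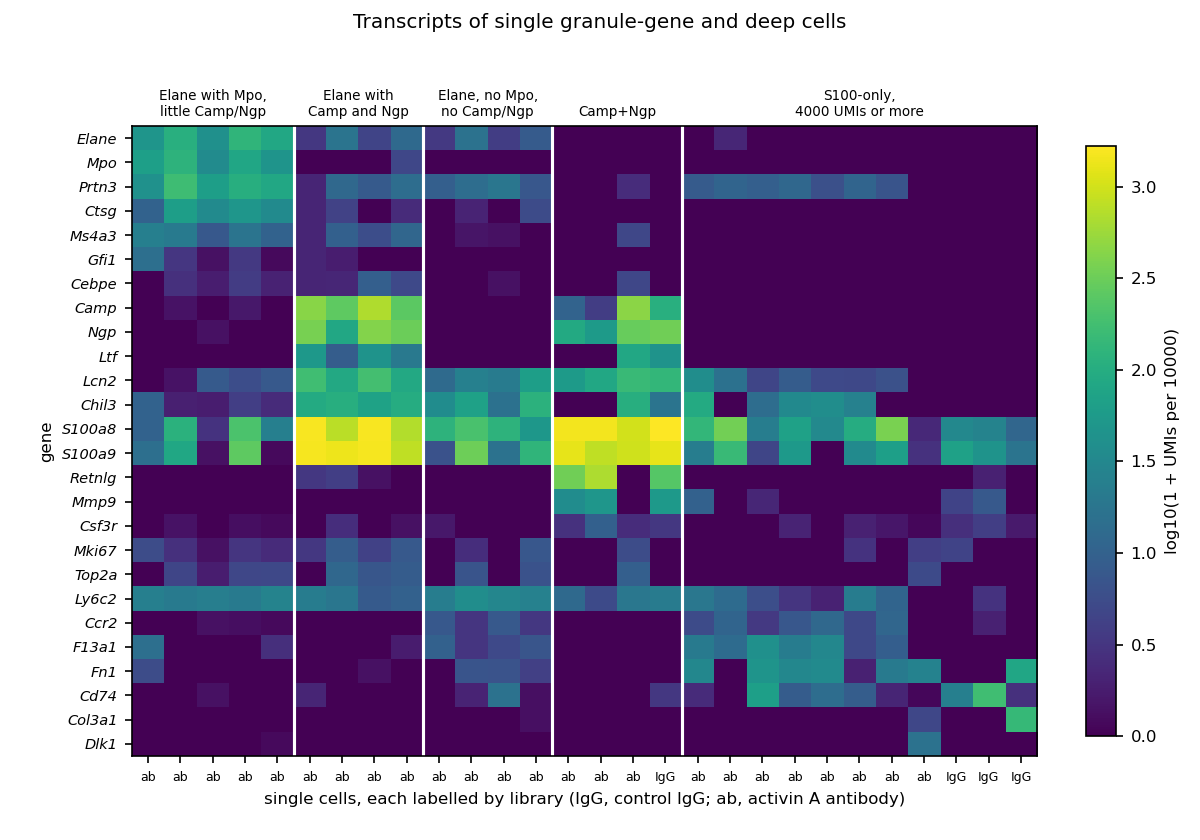
Each column is 1 cell (ab, antibody library; IgG, control IgG library) and each row 1 gene, with color showing log10(1 + UMIs per 10000 UMIs of the cell). From the left, the blocks are 5 cells with Elane and Mpo, 4 with Elane, Camp and Ngp, 4 with Elane alone, 4 with Camp and Ngp, and 11 S100-only cells with 4000 UMIs or more; the bright Camp and Ngp rows are confined to the 2 blocks named for them.

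The S100-only cells under 4000 UMIs carried the transcripts of mature neutrophils. Csf3r, the receptor of the growth factor G-CSF, had a UMI in 84.5% of cells with control IgG and 89.3% with the antibody, at 1634 and 1875 CPM. Cxcr2, the receptor for neutrophil-attracting chemokines, had one in 66.4 and 66.1% of cells, and Mmp9 in 73.6 and 75.0%. B cells of the same libraries, which should lack these genes and had medians of 2698 and 2672 UMIs, had a Csf3r UMI in 0.816 and 0% of cells, a Cxcr2 UMI in 0.408 and 0%, and an Mmp9 UMI in 0 and 0.658%. In C1q cells, with medians of 7384 and 6065 UMIs, the share with Csf3r was 26.6 and 26.1%, that with Cxcr2 0.382 and 0.344% and that with Mmp9 1.34 and 1.72%. The B cells gave S100a8 or S100a9 UMIs in 0 of 245 cells with control IgG and 8 of 152 (5.26%, 2.30 to 10.1%) with the antibody, and an Elane or Mpo UMI in 0 and 1. In free RNA, taken from barcodes under 100 UMIs, S100a8 plus S100a9 were 0.0120% of UMIs with control IgG and 0.0681% with the antibody, against a median of 4.54 and 6.02% in the S100-only cells under 4000 UMIs. Elane, Mpo, Camp and Ngp had 0 UMIs in both libraries, although the class rule only kept them low. Ltf had 5 and 1 UMIs and Ly6g, a surface marker of mouse neutrophils, 3 and 1. Other granule genes were present: Lcn2 had 91 and 50 UMIs, Hp (haptoglobin) 82 and 66, and Pglyrp1, which binds bacterial peptidoglycan, 65 and 48.

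Markers of other cell types had few UMIs in the shallow cells. The 12 macrophage markers summed to 41 and 26 UMIs (261 and 292 CPM, led by Apoe, with 7 and 9 markers at 0), and the 10 T cell markers to 11 and 4 UMIs. The member rule limits the C1q genes and bars the Cd3 genes, so these sums were partly fixed by the choice of cells. Without those genes, 9 macrophage markers summed to 33 and 26 UMIs and 7 T cell markers to 11 and 4. The 9 B cell markers summed to 16 and 5 UMIs and the 6 erythroid markers to 0 and 0. The sums were 6 and 4 UMIs for the 8 NK cell markers, 17 and 4 for the 8 of eosinophils, 16 and 3 for the 8 of cancer cells, and 5 and 4 for the 6 of endothelium. The 12 dendritic cell markers gave 94 and 23 UMIs (598 and 258 CPM, led by Cd74), and the 12 of fibroblasts and mesothelium 99 and 45 UMIs (629 and 505 CPM, led by Gsn). The monocyte list reached 369 and 234 UMIs (2346 and 2628 CPM), led by Cd14, which activated neutrophils also express, with 5 of its 12 genes, Ccr2, Vcan and F13a1 among them, at 0 in each library. The mast cell and basophil list reached 252 and 172 UMIs, of which Hdc, an enzyme of histamine synthesis that neutrophils also express, gave 1596 and 1931 CPM, and 8 and 9 of its 10 genes were at 0. Mitochondrial genes made up 2.72% of UMIs in these cells with control IgG and 1.16% with the antibody. The corresponding shares were 3.07 and 2.47% in cells with at least 2 Cd3 UMIs (T cells) and 38.3 and 22.5% in free RNA, so the libraries differed in this measure outside the neutrophils too.

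Over all 194 members, the 2 libraries differed in many genes. Of 2563 genes with at least 50 UMIs over both libraries, 563 (22.0%) were at least 2-fold higher with the antibody and 620 (24.2%) at least 2-fold lower, with a median log2 ratio of -0.20. This contrast mostly set the deep Elane+Mpo cells of the antibody library against the shallow cells of the control IgG library. The deep S100-only cells, which carried markers of other cell types, held 21.5% of member UMIs with control IgG and 25.4% with the antibody. The antibody cell with Dlk1 and Hmga2 alone held 73151 UMIs. The counts over all members include these cells. Lists are counted here without the genes that chose the members and without genes at 0 UMIs in the control IgG members. The latter numbered 36 among all measured genes and could only be higher. Genes with few control IgG UMIs could also pass the minimum of 50 UMIs mainly through the antibody library. Its members held 559661 UMIs against 205798 with control IgG. Such genes were kept, so the counts of higher genes in these lists are a description. Of the azurophil granule list, 1 of 3 such genes was higher and 0 lower (median log2 ratio 0.55), of the specific granule list 8 of 10 and 0 (1.22), and of the cell division list 8 of 10 and 0 (2.95). Of 82 measured ribosomal protein genes, 78 were higher. Conversely, 9 of 13 genes of the mature neutrophil list were lower and 1 higher (-1.48), as were 11 of 15 and 0 of the interferon-stimulated list (-1.74) and 11 of 12 and 0 of the apoptosis and survival list (-1.58). These lower counts depended on how cells were weighted. With the mean of per-cell CPM, which weights cells equally, 433 genes were higher and 181 lower, and the lower genes of these 3 lists were 1 of 13, 2 of 15 and 1 of 12. The higher genes were then still 8 of 10 in the specific granule list and 7 of 10 in the cell division list. Prtn3, Elane and Ctsg had 0 UMIs in the control IgG members and stood at 2714, 2355 and 1027 CPM with the antibody. Elane helped to choose the members, and all 3 genes were measured only through the antibody library, so these levels are a description. Chil3 was at 160 and 2955 CPM (log2 ratio 4.20, 3.71 to 4.75) and Ly6c2 at 82.6 and 1369 CPM (4.05, 3.36 to 4.84). Both had UMIs in each library, but only 33 and 17 with control IgG against 1654 and 766 with the antibody. They too passed the minimum through the antibody library, so their levels are a description. Within the Camp+Ngp stage, with 1 control IgG cell and 3 antibody cells, the Ly6c2 ratio was -0.74. The 4 lowest were ranked by the ratio of CPM plus 10, among genes with UMIs in at least 10 control IgG cells. They were Tgfbr2, a TGF beta receptor (258 and 19.7 CPM, with 39 of its 53 control IgG UMIs in 1 cell), H2-Aa, an antigen-presentation gene (355 and 32.2 CPM, with 58 of 73 UMIs in 1 cell), Gm31718 (413 and 48.2 CPM), and Csf1, a growth factor of macrophages (802 and 102 CPM).

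A comparison within 1 class was made in the S100-only cells under 4000 UMIs, whose depth was limited from above but not matched (697 to 3494 UMIs with control IgG and 844 to 3945 with the antibody). These cells were still a mixture: of the clusters described below, the one led by Cxcl3 and Csf1 held 94 of the 110 control IgG cells and 30 of the 56 antibody cells, and the one led by Retnlg held 15 and 25. The ratios below include this mixture, and genes that lead a cluster are among those that differ. Of 930 measured genes, 30 (3.23%) were at least 2-fold higher with the antibody and 38 (4.09%) at least 2-fold lower. The median log2 ratio was -0.03. The control IgG cells of this class held 157271 UMIs against 89051 with the antibody. Lower genes could therefore pass the minimum of UMIs mainly through the control IgG library. Such genes were kept, so the count of lower genes is a description. All 68 genes past 2-fold had a counting interval that did not hold 0. The minimum of UMIs and the 2-fold limit together already fixed that outcome, so it is no further check on these genes. Of the 11 mitochondrial genes measured, 8 were among the lower genes, and of the 54 ribosomal protein genes 0 passed in either direction.

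**Figure D3:**
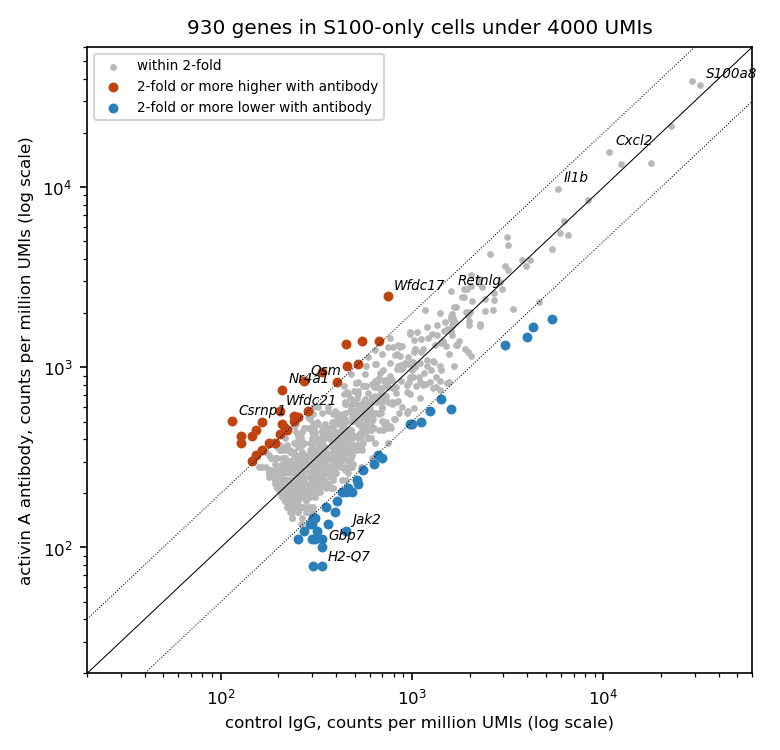
Each point is 1 of the 930 genes measured in S100-only cells under 4000 UMIs, with its CPM in the control IgG library (x axis) and in the antibody library (y axis), both on log scales; the solid line marks equality and the dotted lines 2-fold. Most genes lie between the dotted lines, with 30 above (red) and 38 below (blue).

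The alarmins chose these cells, so their levels are a description. S100a8 stood at 31811 CPM with control IgG and 37035 CPM with the antibody (log2 ratio 0.22, 0.16 to 0.28), and S100a9 at 28944 and 38764 CPM (0.42, 0.36 to 0.49). Of 13 other measured genes of the mature neutrophil list (median log2 ratio 0.20), 1 passed 2-fold, higher with the antibody: Wfdc21, a small secreted protein of the whey acidic family (203 and 573 CPM, 1.49, 0.83 to 2.18). Within the Cxcl3-led cluster the Wfdc21 ratio turned to -0.50. Retnlg was at 1602 and 2650 CPM (0.73, 0.46 to 0.99) and had a UMI in 21.8 and 46.4% of cells. One control IgG cell held 128 of its 252 UMIs, and without that cell Retnlg was at 799 CPM with control IgG and the ratio was 1.73 (1.41 to 2.05), past 2-fold. Without the top cell of both libraries it was 1.37 (1.04 to 1.72). Within the Cxcl3-led and the Retnlg-led cluster the Retnlg ratio was -1.16 and -0.86. No top cell was left out of these ratios, Retnlg itself leads a cluster of only 15 and 25 of these cells, and the part of single cells was not tested. In the specific granule list 0 of 5 passed (median 0.47), with Lcn2 at 579 and 561 CPM and Lyz2 (lysozyme) at 763 and 1056 CPM. Of 7 gelatinase and secretory granule genes only Adam8, a surface protease, passed (210 and 483 CPM, 1.20, 0.51 to 1.90). None of the 10 measured migration genes, 16 receptor genes, 6 NADPH oxidase genes or 12 myeloid transcription factors passed.

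Among the cytokines and chemokines that the cells make, 2 of 10 were at least 2-fold higher and 0 lower (median log2 ratio 0.47), beside 3.23 and 4.09% of all measured genes. Osm (oncostatin M, of the interleukin 6 family) was at 273 and 842 CPM (log2 ratio 1.62, 1.06 to 2.20) and had a UMI in 20.9 and 55.4% of cells. Cxcl3, a ligand of Cxcr2, was at 451 and 1348 CPM (1.58, 1.14 to 2.02), in only 10.0 and 14.3% of cells. The most abundant members of the list stayed within 2-fold: Cxcl2, another Cxcr2 ligand, at 10663 and 15755 CPM (0.56, 0.46 to 0.67), and Il1b (interleukin 1 beta) at 5754 and 9803 CPM (0.77, 0.63 to 0.90). Ccl4 was at 2232 and 3111 CPM and Ccl3 at 1615 and 1976 CPM. Csf1 lay in the other direction, at 1017 and 595 CPM (-0.77, -1.25 to -0.32).

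Of 13 genes of the list of tumor neutrophil and suppression genes, 3 were higher and 0 lower (median log2 ratio 0.16), beside 3.23 and 4.09% of all 930 genes, and the same background holds for the lists that follow. Wfdc17 was at 744 and 2482 CPM (1.74, 1.41 to 2.07), with 45 of its 221 antibody UMIs in 1 cell. Hilpda, a lipid droplet gene that hypoxia induces, was at 254 and 528 CPM (1.05, 0.41 to 1.70), and Spp1 (osteopontin) at 165 and 348 CPM (1.07, 0.27 to 1.88), with 13 of its 31 antibody UMIs in 1 cell, without which the ratio was 0.31 (-0.64 to 1.24). Ptgs2 (the prostaglandin enzyme COX-2) at 1195 and 1673 CPM and Cd274 (PD-L1) at 1329 and 887 CPM (-0.58, -0.98 to -0.20) stayed within 2-fold. In the interferon-stimulated list 1 of 14 was lower, Gbp5, a guanylate-binding protein of interferon gamma responses (483 and 202 CPM, -1.26, -2.09 to -0.50), and 0 were higher (median of the list -0.07). Its relative Gbp7, outside that list, was at 337 and 101 CPM (-1.74, -2.94 to -0.71), and Gbp2 at 1520 and 820 CPM (-0.89, -1.29 to -0.51). Isg15, a ubiquitin-like gene of type I interferon responses, lay in the other direction, at 846 and 1325 CPM (0.65, 0.28 to 1.02). Among 13 hypoxia and glycolysis genes, Tpi1 (451 and 202 CPM, -1.16, -1.99 to -0.40) and Eno1 (356 and 168 CPM, -1.08, -2.01 to -0.24) were lower and 0 were higher (median -0.22). With the study's limits of 1000 genes and 1000 UMIs, which leave few of these cells, Wfdc17 (-2.82), Wfdc21 (-1.23), Adam8 (-0.23) and Tpi1 (0.03) changed direction. Within the Retnlg-led cluster Eno1 was at 1.14 and Gbp7 at 0.14. Both rest on few UMIs, as all antibody cells of this class held only 15 and 9. None of 8 apoptosis and survival genes or 4 cell division genes passed. Of the 22 genes of the Activin and TGF beta pathway only 2 were measured, Skil at 439 and 314 CPM and Tgif1 at 248 and 180 CPM, and neither passed. The progenitor list had 0 measured genes in these cells.

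**Figure D4:**
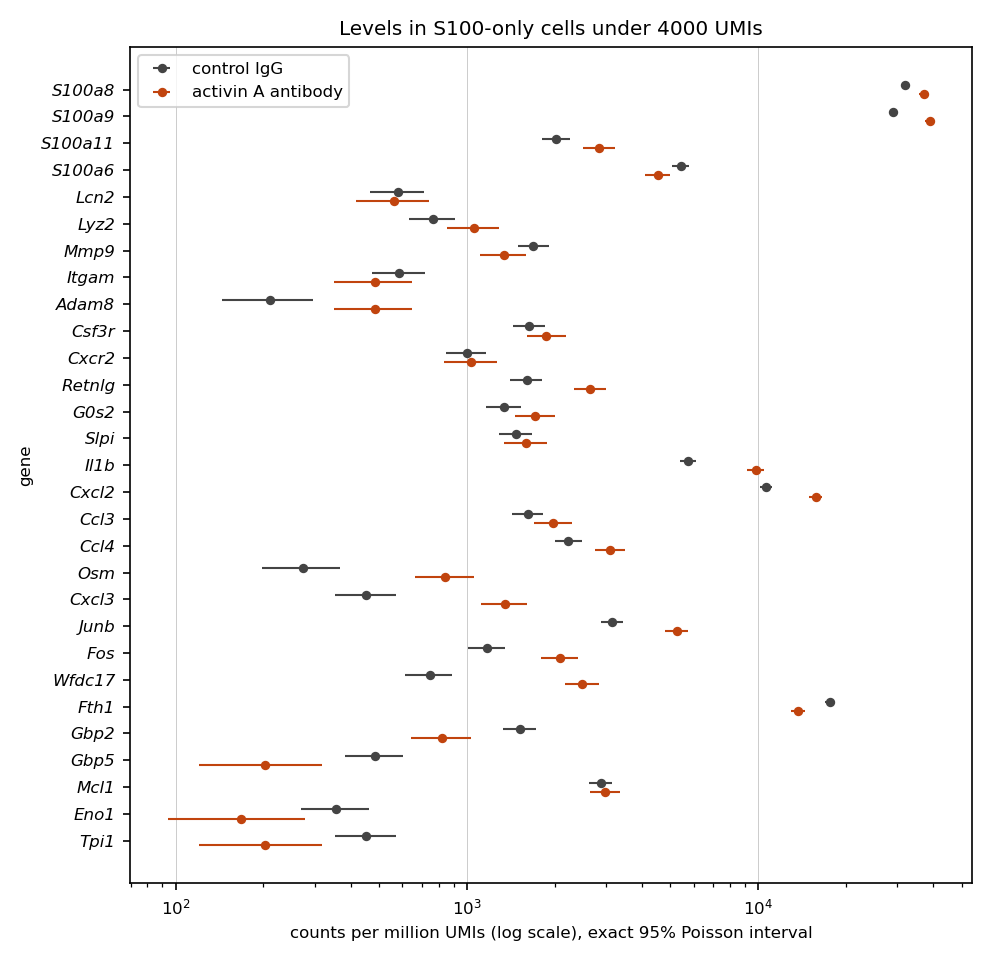
CPM (x axis, log scale) of genes named from the lists in S100-only cells under 4000 UMIs, over 110 control IgG cells (gray) and 56 antibody cells (red); bars are exact 95% Poisson intervals for counting error. The 2 libraries lie close for most genes, and Osm, Cxcl3, Wfdc17 and Adam8 are to the right and Gbp5, Eno1 and Tpi1 to the left with the antibody.

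Among genes with UMIs in at least 10 antibody cells, the 15 with the largest ratios were named as higher. The first was Csrnp1, a nuclear protein induced by axin, at 114 and 505 CPM (2.14, 1.33 to 3.02), with a UMI in 13.6 and 48.2% of cells. Nr4a1, an immediate-early nuclear receptor, was at 210 and 752 CPM (1.84, 1.22 to 2.49), Fosb at 165 and 494 CPM (1.58, 0.85 to 2.34) and Ddit3, of the unfolded protein response, at 153 and 449 CPM (1.56, 0.79 to 2.35). On the lower side stood H2-Q7, a class Ib histocompatibility gene of a family of near-identical copies whose counts are uncertain (337 and 78.6 CPM, -2.10, -3.48 to -0.96), Clec5a, a myeloid lectin receptor (305 and 78.6 CPM, -1.96, -3.35 to -0.80), and Jak2, a kinase of cytokine receptors (451 and 124 CPM, -1.87, -2.94 to -0.94). H2-Q7, Clec5a and Jak2 passed the minimum of UMIs mainly through the control IgG library. They had 53, 48 and 71 UMIs there against 7, 7 and 11 with the antibody, so their levels are a description. The direction turned within the Retnlg-led cluster for Clec5a (0.14) and Jak2 (1.73).

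Some of the higher genes had ratios of the same sign in other cells of the libraries. Of the 15 genes named as higher, 13 were also higher in Cd3 cells (2 past 2-fold), 9 in C1q cells (4), 7 in B cells (3) and 14 in free RNA (6). Of the 15, 1 had no value in C1q cells and 2 had none in B cells. Over all genes, those with a value numbered 930 in Cd3 cells, 925 in C1q cells, 888 in B cells and 930 in free RNA. Of these, 60.5, 58.4, 49.0 and 86.0% had a higher level, and 0.538, 2.59, 7.55 and 2.37% were at least 2-fold higher. The log2 ratio of Nr4a1 was 0.79 in Cd3 cells, 1.34 in C1q cells and 1.47 in free RNA. That of Csrnp1 was 0.93, 0.99 and 1.29, and that of Osm 0.75, 1.27 and 0.85. Wfdc21 was higher by 2.84 in Cd3 cells and 3.19 in free RNA. The 2 genes past 2-fold in Cd3 cells were at low levels there, Wfdc21 at 0.341 and 2.45 CPM and Cstdc4 at 0.0487 and 0.194 CPM. Wfdc17 was at -0.39 in Cd3 cells, 0.09 in C1q cells and -0.24 in free RNA, against 1.74 in the shallow neutrophil-lineage cells. Of the 15 genes named as lower, 6 were lower in Cd3 cells, 9 in C1q cells and 5 in free RNA, with 0 past 2-fold. In B cells 8 were lower, with 1 past 2-fold, and 1 had no value. Of all genes with a value, 39.5% were lower in Cd3 cells, 41.6% in C1q cells, 51.0% in B cells, and 130 of 930 in free RNA. The share at least 2-fold lower was 1.61, 0.541, 4.84 and 0.538%, in the same order. Jak2 was at 0.24, -0.08 and 0.34 and Gbp7 at 0.19, 0.34 and 0.50 in Cd3 cells, C1q cells and free RNA. The part of free RNA in these ratios was not tested. Within the Cxcl3-led cluster, 14 of the 15 higher genes kept their direction and 9 passed 2-fold, as did 15 and 8 of the 15 lower genes. Within the smaller Retnlg-led cluster, 15 of the higher genes kept their direction and 7 passed 2-fold, but only 6 of the 10 lower genes with UMIs in both libraries kept theirs. No minimum of UMIs was set for these ratios. Over the whole class the lower genes had only 7 (H2-Q7) to 44 (Resf1) antibody UMIs. Osm was at 1.11 and 1.53 in these clusters and Nr4a1 at 1.80 and 1.18, while Fosb was at 0.33 and 0.43 and Jak2 at -2.31 and 1.73.

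**Figure D5:**
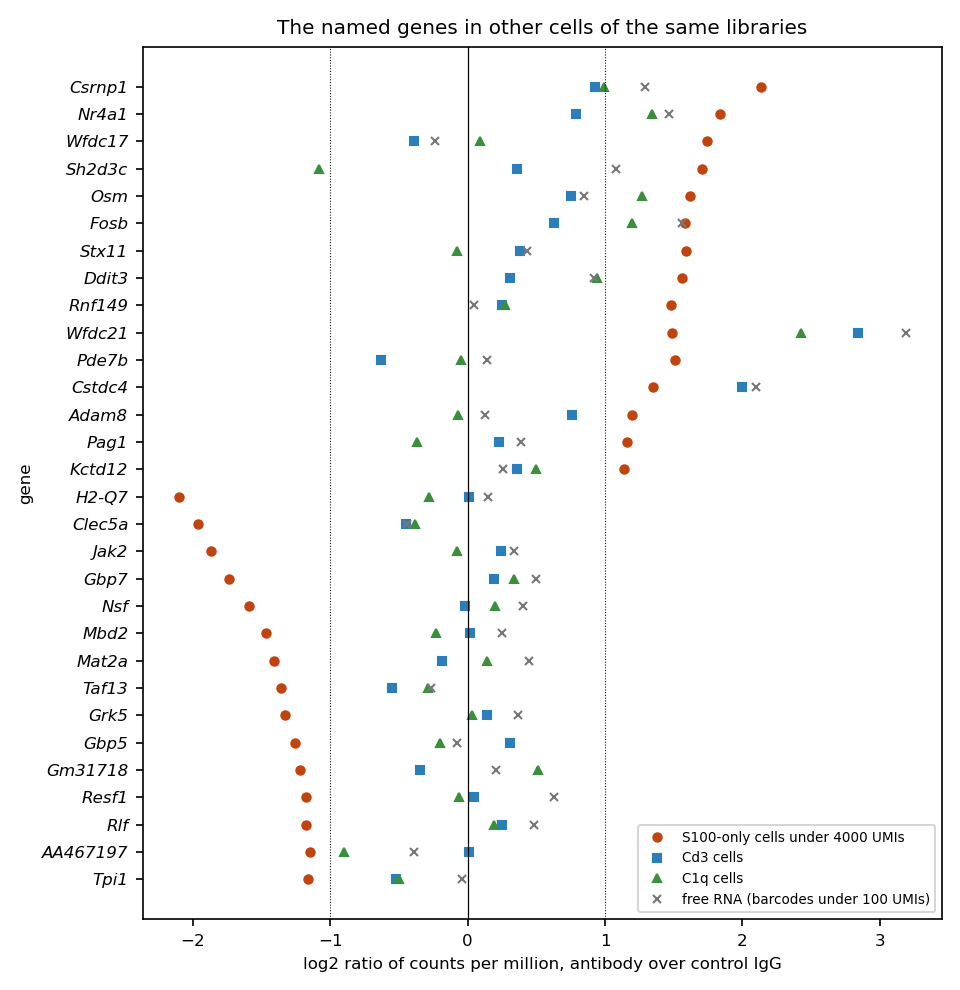
Log2 ratio of CPM, antibody over control IgG (x axis), of the 15 genes named as higher and the 15 named as lower in S100-only cells under 4000 UMIs (red circles), beside the ratio of the same gene in Cd3 cells (blue squares), C1q cells (green triangles) and free RNA (gray crosses); dotted lines mark 2-fold. Most higher genes lie right of 0 in Cd3 cells and free RNA too, as do 60.5 and 86.0% of all 930 measured genes. The lower genes lie between the dotted lines there.

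Leiden clustering of the 194 members, given as a description, separated 3 clusters. One of 28 cells, led by Elane, Prtn3, Camp and Mpo, held all 13 Elane+Mpo cells and all 11 deep S100-only cells, at a median of 14805 UMIs. One of 42 cells was led by Retnlg, Cstdc5 and Stfa2, and had neutrophil markers detected, 9 of 16 in at least 20% of its cells. The third, of 124 cells, all S100-only under 4000 UMIs, was led by Cxcl3, Csf1, Clec4n and Icam1 and had 0 neutrophil markers among its 10 leading genes over the other members, so it was given no name, although 7 of the 16 markers were detected in at least 20% of its cells.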

How the data were processed

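The deposited matrices give a raw UMI count for each gene in each droplet, which the authors made with Cell Ranger and did not normalize or filter. Their header names version 4, and the submitters' processing notes give 7.0.1 with build mm10. The labels differ from the study's account of its single-cell experiment in the number of mice, the days of treatment and the library chemistry, and their mouse numbers match another antibody experiment of the study. The groups come from the sample titles. Members, classes and gene lists were chosen with earlier results of these data known.

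Counts of 32285 genes were added up within each class and library and scaled to counts per 1e6 UMIs (CPM). A gene was measured at 50 UMIs over both libraries and called at 2-fold, since 1 library per group allows no test and cells are not replicates. Shares have exact Clopper-Pearson, levels exact Poisson, and ratios conditional binomial 95% intervals, and these cover counting error only. They are too narrow where a gene's UMIs lie in few cells. Kept cells had medians of 5398 and 4361 UMIs. Genes were named by role list (up to 4 most abundant and any past 2-fold) and as the 15 with the largest ratio of CPM plus 10 each way, in at least 10 cells of the higher library, leaving out mitochondrial, ribosomal, haemoglobin and immunoglobulin genes. Any other gene named was chosen after its values were seen. Doublets were kept, and leaving out the highest Scrublet scores was an alternative. Members were clustered by Leiden (1500 variable genes, 20 components, 15 exact neighbours, resolution 0.5, seed 1). The sums and intervals were tested on simulated counts. Python 3.11.15, numpy 2.4.6, scipy 1.17.1, pandas 2.3.3, scanpy 1.11.5 and matplotlib 3.10.9 were used.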

Additional observations from a re-analysis of the deposited data

Results flagged for a closer look

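Outside the members, the antibody library held 4 kept cells with at least 2 UMIs of Elane plus Mpo and at least 5 granule UMIs that were left out for a Cd3 UMI, against 0 in the control IgG library. They were noticed because the signal lay outside the members. One had 161 Elane, 60 Mpo, 789 Camp and 241 Ngp UMIs beside 1 Cd3 UMI, and one had 264 Elane and 114 Mpo UMIs beside 19 Cd3 UMIs, which places it among the Cd3 cells compared above. The remaining cells held 36 and 28 Elane UMIs with 1 Cd3 UMI each. Whether the Cd3 UMIs were free RNA or a second cell was not tested.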

How the results depend on the processing

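Among the alternatives, the 13 Elane+Mpo cells were members of the antibody library alone in every setting run: 12 were left without the highest Scrublet scores and 8 after thinning to 1000 UMIs, and 0 appeared with control IgG. At 1000 genes and 1000 UMIs the share of neutrophil-lineage cells was 0.148% with control IgG and 0.470% with the antibody, in place of 1.22 and 1.16%. There the share with Elane plus Mpo was 43.3% with the antibody, that with Camp plus Ngp was 7.69 and 23.3%, and S100-only cells under 4000 UMIs were 0.103 and 0.0940% of kept cells. The share of members with control IgG and the antibody was 0.739 and 0.957% at an S100 threshold of 50, 1.53 and 1.22% at 10, and 0.976 and 1.04% after thinning to 1000 UMIs, so its direction turned at 50, after thinning, and at 1000 genes and 1000 UMIs. That of the shallow class was 0.696 and 0.652% at 50 and 1.48 and 0.870% at 10.

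Over all members, the 563 higher and 620 lower genes became 1315 and 1100 at a minimum of 20 UMIs, 297 and 351 at 100, 1944 and 1541 with no minimum and CPM plus 10, and 30 and 38 in the shallow cells alone. The lower count was 266 at 1000 genes and 1000 UMIs, 406 at an S100 threshold of 50 and 181 with the mean of per-cell CPM. Median-ratio scaling moved the split to 685 higher and 459 lower. Listed genes past 2-fold went from 118 to 48 with the mean of per-cell CPM and 10 in the shallow cells. In the shallow cells, the 30 higher and 38 lower genes became 105 and 182 at 20 UMIs, 10 and 16 at 100, 1492 and 1468 with no minimum, 250 and 206 with no limit on UMIs, and 11 and 8 at 1000 genes and 1000 UMIs, and the lower count was 59 at an S100 threshold of 10. The 10 listed genes past 2-fold there became 17 at 20 UMIs, 3 at 100, 37 with no minimum and 40 with no limit on UMIs. Within the Retnlg-led cluster, where 176 genes were measured, the 30 higher, 38 lower and 10 listed genes became 13, 9 and 6.

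Of 39 gene ratios in the shallow cells, not all had a value at 1000 genes and 1000 UMIs, where few cells remain. There 15 stayed the same, 13 moved without turning, and 5 changed direction: Adam8 (-0.23), Taf13 (0.35), Tpi1 (0.03), Wfdc17 (-2.82) and Wfdc21 (-1.23). With no limit on UMIs Tpi1 was at 0.65. Within the Cxcl3-led cluster Wfdc21 was at -0.50. Within the Retnlg-led cluster (15 and 25 cells) Clec5a, Gbp7 and Gm31718 were at 0.14, Eno1 at 1.14 and Jak2 at 1.73, all on few UMIs. Over all members, Ly6c2 (-0.74) and Plcb1 (-2.57) changed direction within the Camp+Ngp stage. The members held 0 haemoglobin UMIs, so the planned subtraction of free RNA removed nothing. The 6 erythroid markers were only 29.2 CPM of free RNA with control IgG and 75.2 CPM with the antibody. Haemoglobin therefore could not show a small part of free RNA, and this setting is no check on it. No paired analysis was possible because the 2 groups are single pooled libraries. A library's share below 3 UMIs or cells was not detectable at this depth.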
